A study of Homo sapiens with 20 samples.

Results

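Vehicle-treated SUM44 cells were compared between 24 h and 3 h, to describe how control cells changed between the times at which estradiol (E2) effects were measured. SUM44 is an established cell line from invasive lobular breast carcinoma, which carries estrogen receptor. The members were the 4 arrays titled vehicle at 24 h and the 4 titled vehicle at 3 h, which are 8 of the 20 arrays in the series. All cells had first spent 3 days in medium with charcoal-stripped serum, whose concentration the series text and the sample text give differently. Cells of the vehicle arms then received 0.01% ethanol and no E2. The 4 baseline arrays, labelled 0 h, came from deprived cells with no addition, and the E2 arms received 1 nM E2 for 3 h or 24 h, with 4 arrays at each time. The treatment field of the E2 arrays at 24 h reads baseline, and they were grouped by their titles. The whole study used 1 cell line and the labels call the replicates biological, without saying how the cultures were separated.

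Values are log2 levels per gene from Affymetrix human expression arrays, taken from each gene's brightest probe set over all 20 arrays. The vehicle arrays correlated at 0.9985 to 0.9991 within a time and at 0.9958 to 0.9967 between the times, and 0 pairs of arrays were identical. The luminal identity of the line was present at both times, with ESR1, the estrogen receptor, at 13.29 ± 0.03 at 3 h and 13.56 ± 0.03 at 24 h (SD, n = 4). GATA3, a transcription factor of luminal cells, stood at 13.62 ± 0.03 at 3 h and 13.63 ± 0.01 at 24 h (SD, n = 4). Markers of other cells were mostly dim, that is, both group means were under 6.11 on the log2 scale, the level that bounds the faintest 25% of genes. That held for 4 of 6 basal, 9 of 13 stromal and 8 of 12 immune or endothelial markers. The brightest stromal marker, the matrix protein gene SPARC, was not dim, at 10.81 at 3 h and 10.80 at 24 h.

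RNA quality differed slightly between the times. The 3' probe set of the ACTB control transcript exceeded the 5' probe set by 0.315 ± 0.027 at 3 h and by 0.397 ± 0.032 at 24 h (log2, SD, n = 4), with no overlap (two-sided exact permutation p = 0.0286, the smallest that 4 against 4 arrays can give). The baseline arrays stood at 0.466 ± 0.010 (SD, n = 4). For GAPDH the same measure was -0.116 at 3 h and -0.117 at 24 h (exact permutation p = 0.971). The part of this difference in the results below was not tested.

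Several well-studied programmes give the frame for these genes. Genes of the G1 to S transition and DNA replication are driven by E2F factors, whereas genes of G2 and mitosis are repressed in resting cells and activated late in the cycle through a short promoter element called the cell cycle genes homology region. NRF2 switches on antioxidant and thiol genes, the aryl hydrocarbon receptor (AHR) switches on CYP1 genes, and SREBP2 switches on cholesterol synthesis when sterols are low. FOXO factors are held in check by insulin and growth factor signalling and raise growth-restraining genes when that signalling is weak.

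Between 3 h and 24 h, vehicle cells lowered CYP1B1, ARAP2, SLC7A11 and PHLDA2 most strongly and raised NDP, SLC14A1, STON1 and TNFSF10 most strongly. Of 11963 genes, 3458 were called (28.9%, limma with Benjamini-Hochberg adjusted p below 0.05), 1929 higher at 24 h (16.1%) and 1529 lower (12.8%). The median difference over all genes was -0.002, and called genes had a median size of 0.21 on the log2 scale. A change of at least 1.5-fold was reached by 97 of the genes that rose and 103 of those that fell, and a change of at least 2-fold by 8 and 18. The 4 arrays at 24 h did not overlap the 4 at 3 h for 3581 genes (29.9%). Many calls therefore rest on small differences between arrays that vary little.

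The largest decrease was in CYP1B1, a cytochrome P450 that oxidises estradiol and xenobiotics. It stood at 12.66, 12.72, 12.54 and 12.62 on the 3 h arrays and at 10.04, 10.13, 10.09 and 10.14 on the 24 h arrays. It fell by 2.54 ± 0.04 (standard error of the limma fit, as for every ± on a difference), a 5.81-fold decrease with an adjusted p of 3.7e-19, and all 4 of its probe sets fell. ARAP2, a GTPase-activating protein for ARF proteins, read 6.77, 7.39, 7.12 and 7.31 at 3 h and 5.16, 4.79, 4.82 and 4.68 at 24 h. Its decrease was 4.87-fold, on a single probe set whose 24 h mean lay below the dim level, so its size is less certain. In both genes every 3 h array lay far above every 24 h array.

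SLC7A11, the cystine transporter that supplies glutathione synthesis, read 8.96, 9.34, 9.11 and 9.32 at 3 h and 7.37, 7.24, 7.49 and 7.52 at 24 h. All 3 of its probe sets fell, and the gene fell by 1.78 ± 0.09 (3.42-fold). PHLDA2, an imprinted gene that restrains growth of the placenta, went from 10.72, 10.84, 10.44 and 10.44 to 8.89, 8.84, 8.76 and 8.87. The 2 times were again fully apart.

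The other large decreases covered signalling, the cytoskeleton and the cell surface. ID3, an inhibitor of basic helix-loop-helix factors and a target of BMP signalling, fell by 1.44 ± 0.07. CEMIP, which takes part in breakdown of hyaluronan, fell by 1.37 ± 0.10. TNFRSF12A, the receptor of the cytokine TWEAK, fell by 1.30 ± 0.08, and TMEM158 fell by 1.25 ± 0.14. RAB31, a small GTPase of vesicle traffic, fell by 1.24 ± 0.05 on all 3 probe sets. MYO1E, a motor of the actin cortex, fell by 1.18 ± 0.08 and ZNF365 by 1.15 ± 0.11. CYP1A2 also belonged to this set, with a decrease of 1.56 ± 0.05 on a probe set whose name marks possible cross-hybridisation. The 24 h means of CEMIP, TMEM158 and ZNF365 lay below the dim level.

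NDP, the secreted protein norrin that acts through a Frizzled receptor, showed the largest increase. It read 5.27, 5.38, 5.48 and 5.23 at 3 h and 6.82, 6.39, 6.61 and 6.68 at 24 h, a 2.43-fold rise of 1.28 ± 0.13, with the 3 h mean below the dim level. STON1, an endocytic adaptor, read 8.58, 8.62, 8.61 and 8.54 at 3 h and 9.85, 9.72, 9.88 and 9.68 at 24 h. STC2, a secreted glycoprotein, read 9.95, 10.07, 9.98 and 10.00 at 3 h and 11.02, 11.11, 11.07 and 11.04 at 24 h. In each of these genes the lowest 24 h array lay well above the highest 3 h array. The adjusted p was 3.8e-07 for NDP, 1.6e-08 for STON1 and 1.1e-13 for STC2.

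TNFSF10, the death ligand TRAIL, rose by 1.17 ± 0.09 on all 3 probe sets, although the set used may cross-hybridise. PCK1, the gluconeogenic enzyme phosphoenolpyruvate carboxykinase, rose by 1.12 ± 0.08. CX3CR1, the fractalkine receptor, rose by 1.02 ± 0.10. DEPP1, a FOXO target, rose by 0.97 ± 0.10 and PRR16, dim at 3 h, by 0.98 ± 0.10. NDC80, a kinetochore subunit, rose by 0.95 ± 0.06. ALB, the albumin gene, rose by 1.17 ± 0.08, but only 1 of its 3 probe sets was called. The urea transporter gene SLC14A1 (1.27 ± 0.14) and the steroid reductase gene AKR1D1 (0.94 ± 0.09) rose while dim at both times, so the size of these changes is less certain.

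**Figure D1:**
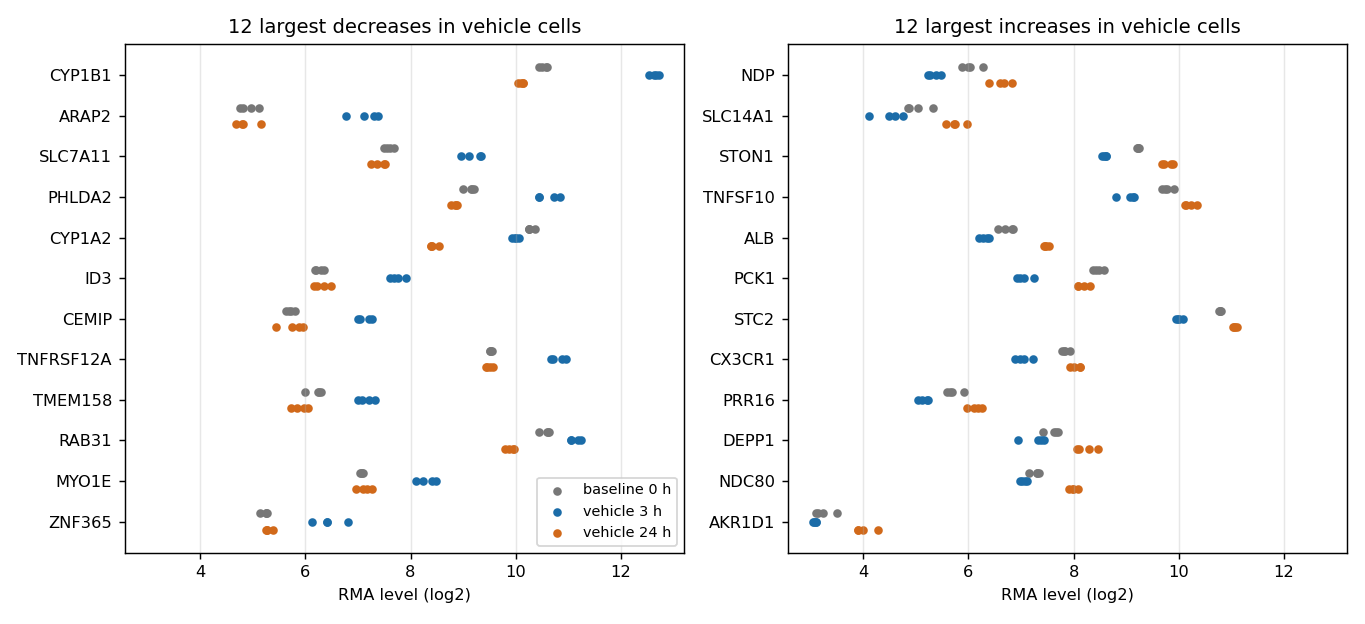
Log2 RMA levels (x axis) of the 12 largest decreases (left) and 12 largest increases (right) between vehicle 3 h and vehicle 24 h, with each point 1 array and 4 arrays per group. In each row the orange 24 h points and the blue 3 h points are apart, and the grey baseline points lie near the 24 h points for ARAP2 and TNFRSF12A but between them for NDP and STON1.

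The baseline arrays showed where the 2 vehicle times lay relative to the start. These counts share arrays with the vehicle comparison and are given as a description only. The genes were picked for a large difference between these same vehicle arrays, which favours positions on opposite sides of baseline. The share of all genes in each position was not counted. By limma, a different measure, 9.95% of all genes were higher at 3 h than at baseline and 10.1% lower. At 24 h 7.55% were higher. Of the 103 genes that fell by at least 1.5-fold, the 3 h arrays lay wholly above the baseline arrays for 94. For 64 of the 103 the 24 h arrays overlapped the baseline arrays, for 32 they lay below and for 7 above. ARAP2 is an example, at 4.92 ± 0.16 at baseline, 7.15 ± 0.28 at 3 h and 4.86 ± 0.21 at 24 h (SD, n = 4). TNFRSF12A likewise stood at 9.52 ± 0.02, 10.80 ± 0.14 and 9.49 ± 0.06 (SD, n = 4). CYP1A2 differed from them, at 10.29 ± 0.06 at baseline, 10.00 ± 0.06 at 3 h and 8.43 ± 0.08 at 24 h (SD, n = 4).

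Of the 97 genes that rose by at least 1.5-fold, the 3 h arrays lay wholly below baseline for 72 and overlapped it for 25. The 24 h arrays lay wholly above baseline for 75, overlapped it for 20 and lay below for 2. Among these selected genes the increases mostly ran from below baseline to above it. The decreases mostly ran from above baseline to a level at or below it. Both patterns are favoured by the way the genes were picked, so they are a description only. STC2 stood at 10.78 ± 0.02 at baseline, between its 2 vehicle means. PCK1 remained below its baseline of 8.46 ± 0.09 at both times (SD, n = 4), at 7.05 ± 0.14 and 8.17 ± 0.11.

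Mitotic genes had the highest share of increases among the 38 lists examined. Of 41 measured genes of G2 and mitosis, 34 rose and 1 fell, against 16.1% and 12.8% of all genes, with a median difference of 0.49 against -0.002 over all genes. KIF20A, a kinesin of cytokinesis, read 7.68, 7.65, 7.67 and 7.68 at 3 h and 8.49, 8.47, 8.54 and 8.52 at 24 h. TOP2A, the topoisomerase that untangles chromosomes, read 9.65, 9.68, 9.71 and 9.60 at 3 h and 10.44, 10.50, 10.37 and 10.33 at 24 h. The spindle genes NUSAP1 and ASPM rose by 0.72 ± 0.04 and 0.64 ± 0.04. The 3 h and 24 h arrays were fully apart for each of these genes.

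CDC20, the activator of the anaphase-promoting complex, was not called (0.18 ± 0.07, adjusted p = 0.059). One 24 h array, replicate A at 7.97, lay below the other three at 8.19, and without it the adjusted p was 0.017. It was also called without replicate C at 3 h (0.043) and, with every array kept, after centring arrays on their medians (0.044), without the dimmest 25% of genes (0.041), with a trended robust prior (0.026) and with cyclic loess (0.05 as rounded, just under the threshold). The member that fell was the phosphatase gene CDC25B (-0.38). Relative to the baseline arrays, 35 of the 41 were higher at 24 h (7.55% of all genes), while at 3 h 4 were higher (9.95% of all genes) and 13 lower (10.1%).

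The sequence that ties many mitotic genes together was looked for in the promoters, because these genes moved together. The letters TTTGAA or TTCGAA were searched on both strands of the 250 bases before each gene start in RefSeq (GRCh38.p14). Of 35 members with a promoter in the table, 19 held a match (54.3%), against 1044 of 9563 genes on the array (10.9%). Among the 29 that rose, 14 held a match, so the match was no more frequent among them than over all 35 members. The 6 windows printed here were chosen from those 14 after the matches were seen, all with a match close to the gene start. Each window is read 5′ to 3′ on the strand of its gene, with the match nearest the gene start in capitals. HMMR holds 2 matches, the other in lower case just before the capitals.
BUB1B: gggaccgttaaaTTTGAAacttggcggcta
CENPA: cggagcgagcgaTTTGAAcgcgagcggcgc
HMMR: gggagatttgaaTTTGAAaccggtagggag
KIF23: ctgattggcccgTTTGAAatgcgccaggcg
CCNB2: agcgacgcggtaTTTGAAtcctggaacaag
KIF4A: ctccgggacggaTTTGAAacttggcggtta

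These windows lie upstream of the gene start, outside the transcript, at chr15:40161034-40161063 for BUB1B, chr2:26786026-26786055 for CENPA and chr5:163460598-163460627 for HMMR. Those of KIF23, CCNB2 and KIF4A lie at chr15:69414282-69414311, chr15:59105105-59105134 and chrX:70290058-70290087, and all 6 are on the plus strand. The genes serve the spindle checkpoint (BUB1B), the centromere (CENPA), spindle assembly (HMMR), cytokinesis (KIF23), mitotic entry (CCNB2) and chromosome condensation (KIF4A). In vehicle cells BUB1B rose by 0.65, CENPA by 0.64, HMMR by 0.64, KIF23 by 0.44, CCNB2 by 0.42 and KIF4A by 0.42 between 3 h and 24 h. A match is a description of the letters and not evidence of a bound factor.

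Replication genes did not follow the mitotic genes. Of 47 measured genes of G1/S and replication, 8 rose (17%) and 14 fell (29.8%), with a median of -0.09. Over all genes 16.1% rose and 12.8% fell. MCM6 and MCM5, subunits of the replicative helicase, fell by 0.41 ± 0.03 and 0.43 ± 0.05. MCM6 read 11.39, 11.34, 11.36 and 11.35 at 3 h and 10.88, 10.93, 10.96 and 11.01 at 24 h. RRM2 and TYMS, which supply deoxynucleotides, rose by 0.58 ± 0.06 and 0.36 ± 0.04. Members of the list were thus called in both directions, the increases at a share near that of all genes.

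**Figure D2:**
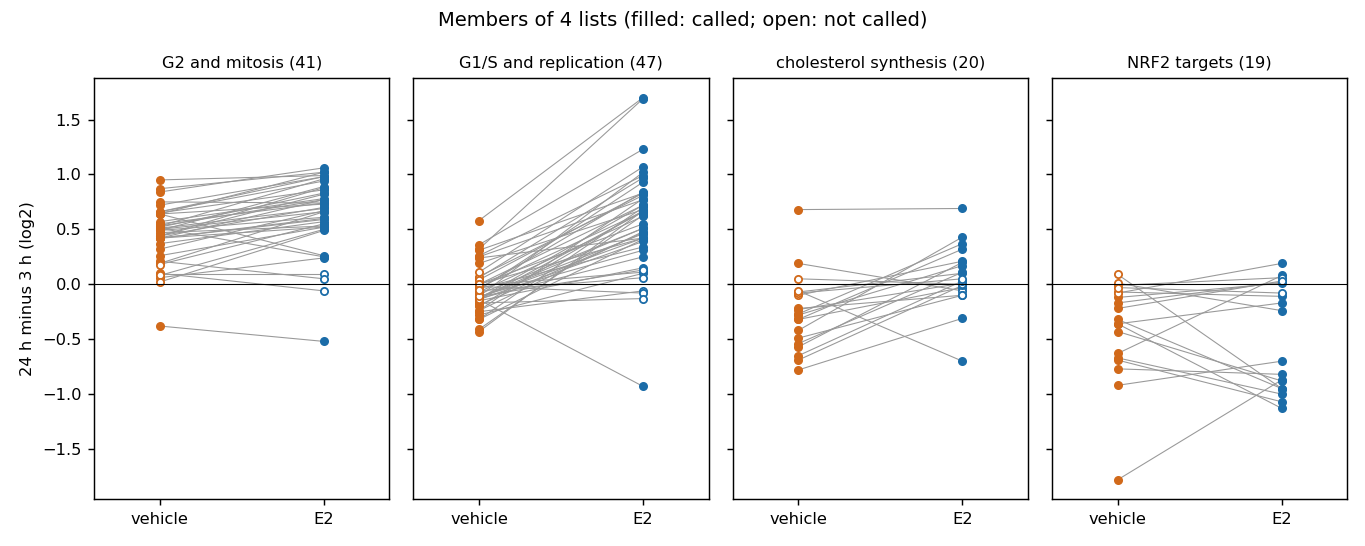
Differences between 24 h and 3 h (log2, y axis) of every measured member of 4 gene lists, in vehicle cells (left of each panel) and in E2 cells (right), with lines joining a gene's 2 values. Filled points passed the test and open points did not; 34 of the 41 mitotic genes were called higher in vehicle and 37 with E2, with CDC25B below 0 in both arms, while 8 of the 47 replication genes were called higher in vehicle and 39 with E2.

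NRF2 target genes fell together. Of 19 measured, 14 fell (73.7%) and 0 rose, against 12.8% and 16.1% of all genes, with a median of -0.32. By limma at an unadjusted p below 0.05 the counts were also 14 and 0, as they were with a trended robust prior. Apart from SLC7A11, the leading members were AKR1C2 and AKR1C1, aldo-keto reductases that inactivate steroids and carbonyls, which fell by 0.69 ± 0.03 and 0.67 ± 0.03. Their probe sets may cross-hybridise between these near-identical genes, so the 2 values are not separate evidence. TXNRD1, thioredoxin reductase, read 11.91, 11.97, 11.93 and 12.06 at 3 h and 11.33, 11.34, 11.37 and 11.32 at 24 h. OSGIN1 was not called (0.09 ± 0.06, adjusted p = 0.34). TXNRD1 fell back towards its baseline of 11.27 ± 0.03 (SD, n = 4), whereas AKR1C2 stood at its baseline level at 3 h (12.77 ± 0.02 at baseline and 12.75 ± 0.03 at 3 h) and below it at 24 h.

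The letters TGACNNNGC of the antioxidant response element were found in 4 of 14 NRF2 promoters in the table (28.6%), against 11.9% of array genes. The TXNRD1 window is shown because that gene is among the 4 members with the smallest p, with the matching letters in capitals, at chr12:104215668-104215700 on the plus strand.
TXNRD1: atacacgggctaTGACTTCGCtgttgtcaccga

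AHR target genes included the strongest decrease of all. Of 11 measured genes in the AHR list, 6 fell (54.5%) and 1 rose (9.09%), against 12.8% and 16.1% of all genes. Their median was -0.36. The list holds AHR itself, its partner ARNT and the NRF2 gene NFE2L2 beside targets. AHR was among those that fell, and ARNT was the gene that rose. Beside CYP1B1 and CYP1A2, NQO1, a quinone reductase that NRF2 also controls, fell by 0.36 ± 0.02, and TIPARP, an ADP-ribosyltransferase that feeds back on AHR, fell by 0.64 ± 0.06. CYP1A1, the classical AHR target, was not called (-0.14 ± 0.08, adjusted p = 0.22), at 6.31 ± 0.08 at 3 h and 6.17 ± 0.07 at 24 h (SD, n = 4). The core letters GCGTG of the AHR element occurred in 4 of 9 member promoters (44.4%), near the 41.7% of all array genes.

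Genes of cholesterol synthesis mostly fell. Of 20 measured genes, 13 fell (65%) and 2 rose (10%), against 12.8% and 16.1% of all genes, with a median of -0.27. SQLE, the epoxidase that begins the sterol-specific steps, read 11.47, 11.46, 11.49 and 11.51 at 3 h and 10.92, 10.96, 10.99 and 10.93 at 24 h. MSMO1, a sterol demethylase, fell by 0.69 ± 0.03 and IDI1, which makes an isoprenoid building block, by 0.57 ± 0.03, the latter measured with possible cross-hybridisation. INSIG2, which retains the SREBP escort protein in the endoplasmic reticulum, rose by 0.68 ± 0.04. SQLE stood at 11.15 ± 0.03 at baseline (SD, n = 4), above its 24 h arrays and below its 3 h arrays. The sterol element letters GTGGGGTGA were present in 1 of 18 member promoters (5.56%) and in 0.345% of array genes, and in 0 of the 11 promoters of members that fell.

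Of 15 genes of fatty acid synthesis, 6 fell (40%) and 1 rose (6.67%), with a median of -0.09, and with cyclic loess between arrays 10 fell. Over all genes 12.8% fell and 16.1% rose. The elongase gene ELOVL6 fell by 0.63 ± 0.04, the phosphatidate phosphatase gene LPIN1 by 0.42 ± 0.05 and the desaturase gene SCD by 0.23 ± 0.03. Of 28 genes of glycolysis and hypoxia, 12 fell (42.9%) and 4 rose (14.3%, near all genes), with a median of -0.06. With only the 8 vehicle arrays in the fit 7 fell. The hypoxia element core ACGTG occurred in 10 of 24 member promoters (41.7%), against 21.7% of array genes.

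Of 19 targets of YAP and SRF, factors tied to the actin cytoskeleton, 11 fell (57.9%) and 2 rose (10.5%), against 12.8% and 16.1% of all genes. Their median was -0.15, and 6 were dim. VCL, the adhesion protein vinculin, read 11.99, 12.17, 12.04 and 12.11 at 3 h and 11.21, 11.22, 11.36 and 11.23 at 24 h, although only 1 of its 2 probe sets was called. FHL2, a LIM-domain cofactor, fell by 0.77 ± 0.05, CCN1, a matricellular protein, by 0.67 ± 0.05 and TAGLN2, a calponin family member, by 0.35 ± 0.04. At baseline CCN1 stood at 8.23 ± 0.06 (SD, n = 4), which overlaps its 24 h arrays, and VCL at 11.18 ± 0.02, just below them.

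Immediate-early genes went both ways, with 9 of 25 higher (36%) and 6 lower (24%) at 24 h and a median of -0.01. Over all genes 16.1% rose and 12.8% fell. KLF4, a transcription factor of differentiation, fell by 0.95 ± 0.05. DUSP6, a phosphatase that switches off ERK, fell by 0.49 ± 0.05, whereas DUSP1, a stress-induced phosphatase of the same family, rose by 0.77 ± 0.07 and the AP-1 gene FOSL2 by 0.45 ± 0.05. In a list of 17 genes linked to MAPK signalling, 6 fell (35.3%) and 1 rose (5.88%), with a median of -0.09. The list holds feedback inhibitors such as DUSP6 beside genes that are not, such as CCND1. The member with the largest decrease was PHLDA2.

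Ribosome biogenesis genes fell by small amounts. Of 22 measured, 14 fell (63.6%) and 0 rose, against 12.8% and 16.1% of all genes, with a median of -0.14. By limma at an unadjusted p below 0.05 the counts were 15 and 0, and with a trended robust prior 14 and 0. DDX21, a helicase of ribosomal RNA processing, read 11.27, 11.32, 11.24 and 11.31 at 3 h and 10.87, 10.86, 10.88 and 10.87 at 24 h. RRS1, a factor of large-subunit assembly, fell by 0.28 ± 0.04. Of 19 ribosomal protein genes, 0 were called in either direction by limma, 0 also passed an unadjusted p below 0.05, and a trended robust prior gave 0 higher and 1 lower.

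Stress-response genes of the endoplasmic reticulum and of protein folding mostly fell. Of 21 genes of the unfolded protein response, 11 fell (52.4%) and 3 rose (14.3%), with a median of -0.11. Over all genes 12.8% fell and 16.1% rose. HSPA5, the main chaperone of the endoplasmic reticulum, fell by 0.22 ± 0.03 and CRELD2, a secreted stress marker, by 0.25 ± 0.04, while HERPUD1, a factor of protein degradation there, rose by 0.29 ± 0.04. Of 17 heat shock genes, 10 fell (58.8%) and 2 rose (11.8%), with a median of -0.14. HSPB1 fell by 0.28 ± 0.03 and HSPA1L rose by 0.38 ± 0.05. Of 27 genes of ATF4 and amino acid supply, 11 fell (40.7%) and 4 rose (14.8%), with a median of -0.10. The arginine transporter gene SLC7A1 fell by 0.70 ± 0.04, though on 3 of its 5 probe sets, and the pseudokinase gene TRIB3 fell by 0.35 ± 0.03. STC2 and SLC7A11, both in the ATF4 list, moved in opposite directions.

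Of 20 FOXO and quiescence genes, 9 rose and 3 fell (45% and 15%, against 16.1% and 12.8% of all genes), with a median of 0.09. INSR, the insulin receptor, read 10.23, 10.29, 10.32 and 10.34 at 3 h and 10.87, 10.77, 10.85 and 10.88 at 24 h. FOXO3 itself rose by 0.40 ± 0.04, the cyclin-like gene CCNG2 by 0.32 ± 0.03 and the receptor gene ERBB3 by 0.37 ± 0.04. INSR and ERBB3 are receptors of growth signalling and not growth inhibitors. INSR stood at 10.47 ± 0.06 at baseline (SD, n = 4), between its 2 vehicle means.

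Of 17 p53 targets, 7 rose (41.2%) and 3 fell (17.6%), with a median of 0.08. Over all genes 16.1% rose and 12.8% fell. GADD45A and GADD45B, growth arrest genes, rose by 0.59 ± 0.04 and 0.39 ± 0.05, whereas CDKN1A, the cell cycle inhibitor p21, fell by 0.29 ± 0.04. Of 17 BCL2 family genes, 7 rose (41.2%) and 2 fell (11.8%, near all genes) with a median of 0.00. With the most variable probe set of each gene 4 rose. BIK, a killer protein with only a BH3 domain, rose by 0.47 ± 0.04 and the survival gene BCL2L2 by 0.30 ± 0.04. Members with opposite roles thus stood in the same list, and no net direction for cell death follows from these counts.

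**Figure D3:**
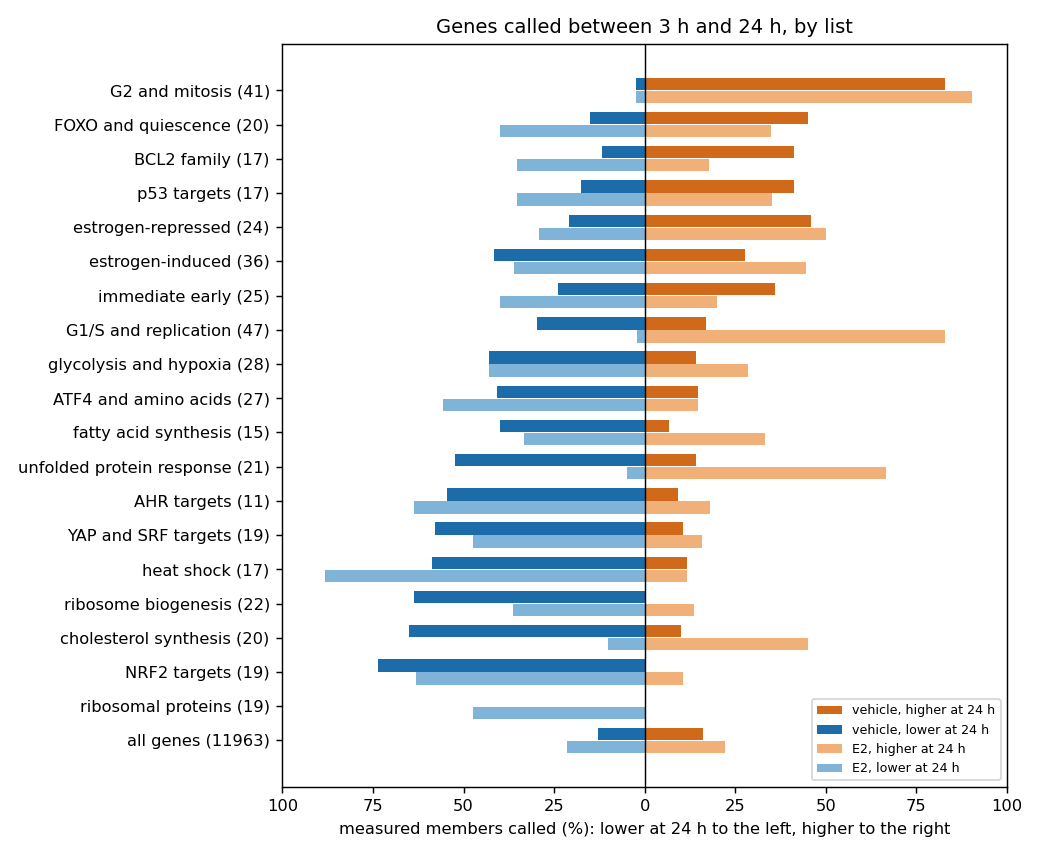
Share of measured members called lower (left) or higher (right) at 24 h than at 3 h, in vehicle cells (dark bars) and in E2 cells (light bars), for 19 gene lists with the number measured in brackets and for all 11963 genes at the bottom. In vehicle cells the mitotic list reaches farthest to the right and the NRF2 list farthest to the left, and replication, cholesterol and unfolded protein genes lie mostly to the left in vehicle and mostly to the right with E2.

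Estrogen-related genes drifted in cells that received no E2. Of 36 estrogen-induced genes, listed from work on ductal breast cancer lines, 15 fell (41.7%) and 10 rose (27.8%), with a median of -0.09. Over all genes 12.8% fell and 16.1% rose. The member with the smallest p, STC2, rose by 1.07, while RAB31 and FHL2 fell by 1.24 and 0.77. GREB1, a cofactor of the estrogen receptor, fell by 0.62 ± 0.07 on 1 of its 3 probe sets, from 10.24, 10.14, 10.01 and 9.99 at 3 h to 9.55, 9.51, 9.42 and 9.44 at 24 h. Its baseline level was 10.48 ± 0.15 (SD, n = 4), above both vehicle times. PDZK1, a scaffold protein, fell by 0.54 ± 0.11 and HSPB8, a small heat shock protein, by 0.54 ± 0.04. Outside this list, among genes kept for their E2 response, DHRS2, a short-chain dehydrogenase, fell by 0.60 ± 0.06 and ACOX2, a peroxisomal oxidase, by 0.57 ± 0.06.

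Among 24 estrogen-repressed genes of such lines, 11 rose (45.8%) and 5 fell (20.8%), against 16.1% and 12.8% of all genes. Their median was 0.01. EFNA1, an ephrin ligand, read 9.96, 9.99, 9.96 and 10.03 at 3 h and 10.47, 10.46, 10.50 and 10.46 at 24 h. CYP1B1 and ID3, both among the 12 largest decreases, were also in this list. In these cells CYP1B1 was higher with E2 than with vehicle, by 0.53 ± 0.04 at 3 h and 1.63 ± 0.04 at 24 h. For ID3 the same differences were -1.73 ± 0.07 and -0.44 ± 0.07. PGR, the progesterone receptor, was dim and not called (0.10 ± 0.14, adjusted p = 0.67). TFF1, a secreted trefoil peptide near the top of the scale, differed by 0.06 ± 0.02 (adjusted p = 0.037). That call was lost without replicate A, B, C or D at 24 h (adjusted p = 0.055, 0.066, 0.057 and 0.085) and without replicate A, B or C at 3 h (0.057, 0.073 and 0.097). It was also lost with every array kept when only the 8 vehicle arrays were fitted (0.11), after centring arrays on their medians (0.13) and with the most variable probe set (0.062).

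ESR1 itself rose by 0.27 ± 0.03, on 4 of its 9 probe sets, from 13.30, 13.28, 13.33 and 13.26 to 13.61, 13.55, 13.53 and 13.57. Of 19 hormone receptor genes, 4 rose and 2 fell (21.1% and 10.5%, near the 16.1% and 12.8% of all genes), and NR3C2, the mineralocorticoid receptor, rose by 0.38 ± 0.05. Of 14 glucocorticoid targets, 3 rose and 2 fell (21.4% and 14.3%, likewise near all genes), with TSC22D3 up by 0.59 ± 0.04 and FKBP5 down by 0.51 ± 0.05. Of 19 luminal genes, 7 rose (36.8%) and 4 fell (21.1%), led by the epithelial factor ELF3 (0.70 ± 0.04). GATA3 was not called (0.01 ± 0.04, adjusted p = 0.93).

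Of 27 WNT genes, 8 fell and 2 rose (29.6% and 7.41%, against 12.8% and 16.1% of all genes), with the ligand gene WNT5A down by 0.82 ± 0.09, dim at both times, and the receptor gene FZD5 by 0.72 ± 0.05, each on 1 of 2 probe sets. Of 24 TGF-beta and BMP genes, 8 fell and 4 rose (33.3% and 16.7%). ID1, like ID3 a BMP target, fell by 0.60 ± 0.10, to a dim 24 h mean, and the receptor gene TGFBR2 by 0.39 ± 0.06, whereas BAMBI, a decoy receptor, rose by 0.77 ± 0.07. Of 18 clock genes, 5 rose and 3 fell (27.8% and 16.7%), with CRY1 down by 0.49 ± 0.05 and PER2 up by 0.32 ± 0.04, the latter on 1 of 2 probe sets. Of 30 interferon genes, 5 rose and 2 fell (16.7% and 6.67%), an increase share at that of all genes, among them the RNA sensor gene OAS1 (0.36 ± 0.05) and the exonuclease gene ISG20 (-0.70 ± 0.07).

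Several named genes rested on part of their probe sets. The call in vehicle was made on 1 of 2 sets for DUSP1, TYMS, ERBB3, TGFBR2 and DLX2, on 1 of 3 for FOSL2 and on 2 of 4 for GADD45B, with 0 sets called in the opposite direction. By contrast SQLE fell on all 3 of its sets, SCD on all 4, and INSR, NUSAP1 and TOP2A rose on both of theirs.

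Few markers of cells other than luminal ones were called. Of 6 basal markers, 1 fell (16.7%, against 12.8% of all genes), the oxytocin receptor gene OXTR (-0.72 ± 0.10). Without replicate A at 3 h, 3 fell. The summed linear level of the basal list ranged from 329 to 374 on the 3 h arrays and from 305 to 324 on the 24 h arrays. Of 13 stromal markers, 0 were called by limma (1 higher and 1 lower at an unadjusted p below 0.05, and 0 with a trended robust prior), and 1 rose without replicate B at 24 h or without replicate D at 3 h. Their summed level, of which SPARC held the largest part, was 2610 to 2701 at 3 h and 2544 to 2623 at 24 h. Of 12 immune or endothelial markers, 1 rose, PECAM1 (0.38 ± 0.08), and the sums were 628 to 666 and 659 to 679. The part of these levels in the other results was not tested.

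**Figure D4:**
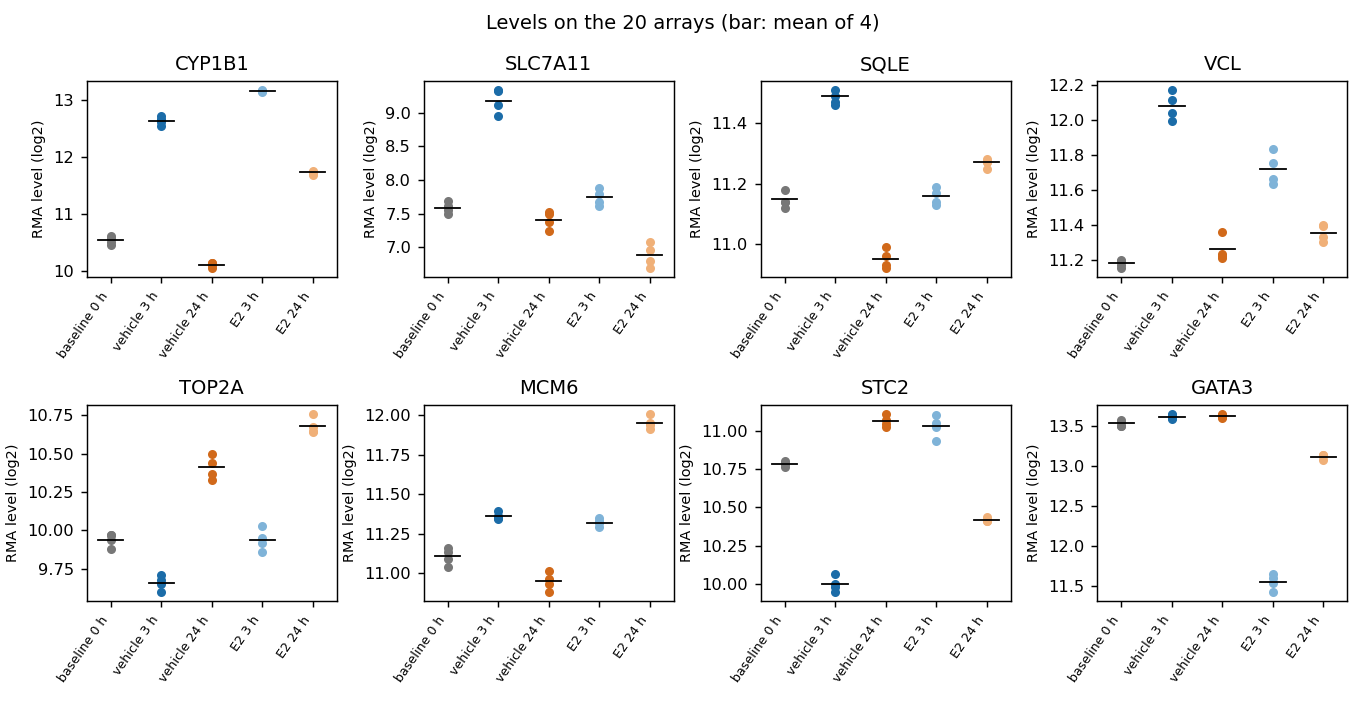
Log2 RMA levels (y axis, scaled separately for each gene) of 8 genes in the 5 groups, with each point 1 array and each bar the mean of 4. CYP1B1, SLC7A11, SQLE and VCL peak at vehicle 3 h among the untreated and vehicle groups, TOP2A and STC2 are highest at vehicle 24 h among them, and GATA3 is level in vehicle while its E2 groups differ.

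The E2 arms, measured on other arrays, showed which part of the change over time was present with hormone as well. Between 3 h and 24 h of E2, 5236 genes were called (43.8%), 2666 higher (22.3%) and 2570 lower (21.5%). The genes higher in both arms numbered 914, which is 47.4% of the vehicle list and 34.3% of the E2 list. The genes lower in both numbered 695, or 45.5% of the vehicle list and 27.0% of the E2 list. Opposite calls were made for 455 genes that rose in vehicle and 346 that fell in vehicle, and 1048 genes called in vehicle were not called with E2 (30.3%). Across all genes the time differences of the 2 arms had a Pearson correlation of 0.19 and a Spearman correlation of 0.179, over 11963 genes that are not independent replicates.

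Among the vehicle genes that changed by at least 1.5-fold, the arms shared a direction more often than they opposed each other. Of the 97 that rose, 52 also rose with E2, 25 fell and 20 were not called. Of the 103 that fell, 59 also fell with E2, 24 rose and 20 were not called. Whether the arms differed was tested in the same fit as the difference of the 2 time differences, which is also the late E2 effect minus the early one. By that test 4100 genes were called (34.3%), 1973 with a higher (16.5%) and 2127 with a lower value with E2 (17.8%).

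The genes with the largest vehicle changes in the same direction as with E2 were all decreases, and most still differed in size. CYP1B1 fell by 1.43 ± 0.04 with E2, from 13.16 to 11.73, and the arms differed by 1.10 ± 0.05 (adjusted p = 7.1e-12). ARAP2 fell by 0.84 ± 0.14 with E2 (difference 1.44 ± 0.20, adjusted p = 7.6e-06), SLC7A11 by 0.87 ± 0.09 (difference 0.91 ± 0.13) and PHLDA2 by 0.53 ± 0.08 (difference 1.25 ± 0.12). For TNFRSF12A and TMEM158 the differences were 0.60 ± 0.11 and 0.70 ± 0.20. CYP1A2 fell by 1.57 ± 0.05 with E2, and no difference from vehicle was detected (-0.00 ± 0.08, adjusted p = 0.97). For CEMIP the difference was 0.21 ± 0.15 (adjusted p = 0.31). TNFSF10 rose by 1.16 ± 0.09 with E2 against 1.17 ± 0.09 in vehicle, and KLF4 fell by 0.95 ± 0.05 in each arm.

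Other vehicle changes were not called with E2. The 8 largest of those that also passed the test of the difference are given here, so passing it was a condition of their choice. NDP differed by 0.08 ± 0.13 with E2 and the arms by -1.20 ± 0.19 (adjusted p = 3.5e-05). STON1 differed by -0.16 ± 0.09 with E2 and the arms by -1.36 ± 0.13. For PCK1, PRR16, DEPP1 and AKR1D1 the arms differed by -1.24 ± 0.11, -1.20 ± 0.14, -0.82 ± 0.14 and -1.05 ± 0.13. ID3 differed by -0.15 ± 0.07 with E2 and the arms by 1.29 ± 0.10. LRP8, a lipoprotein receptor, fell by 0.96 ± 0.07 in vehicle, differed by 0.17 ± 0.07 with E2, and the arms differed by 1.13 ± 0.10.

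A further set moved in opposite directions. STC2 fell by 0.60 ± 0.03 with E2, from 11.03 to 10.42, and the arms differed by -1.67 ± 0.05 (adjusted p = 3.9e-15). SLC14A1 and ALB fell by 0.99 ± 0.14 and 1.08 ± 0.08 with E2, and the arms differed by -2.25 ± 0.19 and -2.25 ± 0.11. CREB5, a transcription factor of the CREB family, fell by 1.09 ± 0.10 in vehicle and rose by 0.37 ± 0.10 with E2. TENT5A, a poly(A) polymerase, fell by 1.05 ± 0.07 in vehicle and rose by 0.47 ± 0.07 with E2. The arms differed by 1.46 ± 0.14 for CREB5 and 1.52 ± 0.10 for TENT5A.

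**Figure D5:**
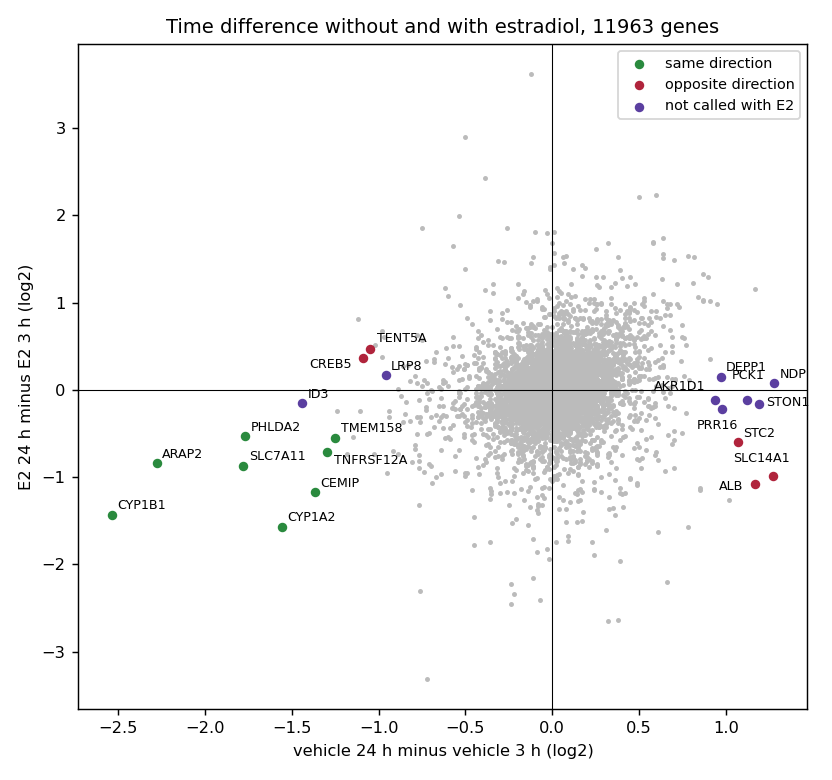
Difference between 24 h and 3 h in vehicle cells (x axis, log2) against the same difference in E2 cells (y axis, log2) for 11963 genes, each point 1 gene. Green genes are the 8 largest vehicle changes called in the same direction with E2, all at the lower left. Red genes are 5 of the 6 largest called in the opposite direction. Violet genes are the 8 largest that were not called with E2 and passed the test of the difference between the arms, and they lie near 0 on the y axis.

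For genes with a strong late E2 effect the vehicle change enters the comparison of late with early effects with its sign turned. ATRNL1 fell in vehicle from 6.96 ± 0.01 to 6.21 ± 0.15 (SD, n = 4), rose by 1.86 ± 0.08 with E2, and its late minus early effect was 2.61 ± 0.12. For PDZK1 the vehicle fall of 0.54 ± 0.11 stood beside a rise of 1.99 ± 0.11 with E2 and a late minus early effect of 2.53 ± 0.16. HDC, histidine decarboxylase, rose by 0.78 ± 0.04 in vehicle and fell by 1.57 ± 0.04 with E2, giving -2.34 ± 0.06. ATP8A2, a lipid flippase, rose by 0.66 ± 0.06 in vehicle, fell by 2.20 ± 0.06 with E2 and reached -2.86 ± 0.08. In each of these genes the vehicle part was smaller than the E2 part and opposite in sign.

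Among other genes with a large contrast between late and early effects, the vehicle part was the smaller in some and the larger in others. The cannabinoid receptor gene CNR1 rose by 0.52 ± 0.10 in vehicle (1 of its 3 probe sets) against a late minus early effect of -1.31 ± 0.14. DHRS2 and ACOX2 had late minus early effects of 1.68 ± 0.08 and 1.18 ± 0.08, and the homeobox gene DLX2, which fell by 0.57 ± 0.07 in vehicle, one of 2.22 ± 0.10. For BAMBI the vehicle part was the larger, at 0.77 ± 0.07 beside -0.27 ± 0.07 with E2 and a late minus early effect of -1.04 ± 0.09. The sulfatase family gene ARSJ fell by 0.98 ± 0.08 in vehicle and rose by 0.38 ± 0.08 with E2 (1.36 ± 0.12), and GREB1 differed by 0.09 ± 0.07 with E2 (0.71 ± 0.10), so most of their late minus early effect was the vehicle fall. GATA3 showed the reverse, with 1.57 ± 0.04 from E2 and 0.01 ± 0.04 from vehicle.

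Gene lists showed the same arithmetic, given here as the counts of each comparison side by side, since the late minus early values use the vehicle arrays. Over all genes 22.3% were called higher and 21.5% lower with E2. For the late minus early effect 16.5% were called higher and 17.8% lower. Cholesterol genes had a median of -0.27 in vehicle, 0.04 with E2 and 0.35 for the late minus early effect, for which 15 of 20 were called higher and 2 lower. SQLE rose by 0.11 ± 0.03 with E2, and MSMO1 was not called there (-0.01 ± 0.03, adjusted p = 0.79). Unfolded protein genes had medians of -0.11, 0.14 and 0.25, with 14 of 21 higher and 1 lower with E2. Replication genes had medians of -0.09, 0.62 and 0.66, and 39 of 47 rose and 1 fell with E2.

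Mitotic genes differed from these lists in that the vehicle arm rose too. Their medians were 0.49 in vehicle, 0.69 with E2 and 0.20 for the late minus early effect, with 37 of 41 higher and 1 lower with E2 and 26 higher and 3 lower for the difference. TOP2A rose by 0.74 ± 0.04 with E2, and no difference between the arms was detected (-0.01 ± 0.06, adjusted p = 0.93), whereas ASPM rose by 1.02 ± 0.04 (difference 0.39 ± 0.05). NRF2 targets had medians of -0.32 in vehicle and -0.24 with E2, where 12 of 19 fell and 2 rose, against 21.5% and 22.3% of all genes. NQO1 fell by 1.13 ± 0.02 with E2, while TXNRD1 rose by 0.08 ± 0.03 (adjusted p = 0.043). Heat shock genes also fell in both, with 10 of 17 lower in vehicle and 15 lower and 2 higher with E2. Of 9 metallothionein and zinc genes, 1 rose and 0 fell in vehicle (2 and 2 by limma at an unadjusted p below 0.05). With a trended robust prior the counts were also 1 and 0. The gene that rose was the zinc transporter gene SLC30A1, and no metallothionein gene was called in vehicle by limma. With E2, 8 of the 9 were lower, SLC30A1 among them (median -0.99).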

How the data were processed

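Total RNA of SUM44 cells was labelled and hybridised to Affymetrix arrays, 20 in 5 groups of 4. The authors deposited log2 levels of each probe set, for which the submitters' processing notes name RMA and affy, with versions not given in the sources used here. RMA normalises arrays to like distributions and hides a shift in overall RNA content, and fewer cells and less RNA per cell cannot be told apart. Control probe sets (62 of 22277) were left out. By the platform annotation 19064 probe sets had 1 symbol, 1043 had several and 2108 had none, and 19052 matched the RefSeq gene table by Entrez number. The probe set with the highest mean stood for a gene, giving 11963 genes.

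Groups and letters came from the titles. One limma 3.58.1 fit (R 4.3.3, lmFit and eBayes, two-sided, all 20 arrays, no block) gave each comparison, with Benjamini-Hochberg adjustment over all genes and a threshold of 0.05. The fit was tested on simulated data. Errors on levels are SD, and p-values measure the spread between these arrays.

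The members, the gene lists and the tests were chosen with earlier results of these data known. Named genes were the 12 largest changes in each direction without overlap, per list at most 4 genes with the smallest p (also for genes not called), the 8, 8 and 6 largest vehicle changes not called, called alike or called oppositely with E2, and 21 genes kept for their E2 response. The 8 not called with E2 also had to pass the test of the difference between the arms. The genes named with promoter windows, CDC25B and SPARC fall outside that rule and were chosen after their values were seen. Alternatives changed which arrays entered, the block by replicate letter, the scaling between arrays, the treatment of dim genes, the probe set per gene, the variance model, the weights and the threshold, or left out single arrays. The values of 1 gene that the rule names are not reported here. No batch or scan date is given in the sources used here.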

Additional observations from a re-analysis of the deposited data

Results flagged for a closer look

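Among the 4 arrays of a vehicle group, 12 of 214 gene and group combinations held an array that lay far from the other three. About 1 in 20 such groups is marked by chance. At 3 h the distant arrays were replicate D for TNFSF10 (8.80), HERPUD1 (11.25) and GADD45A (10.38), replicate B for OSGIN1 (7.05) and BAMBI (8.29), and replicate A for ATP8A2 (8.49). At 24 h they were replicate C for ZNF365 (5.39), OSGIN1 (6.88) and VCL (11.36), replicate D for TAGLN2 (11.65) and BCL2L2 (9.47), and replicate A for CDC20 (7.97). Replicate D at 3 h thus accounts for 3 of the 12, and the calls for TNFSF10, HERPUD1 and GADD45A were also made without it.

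Among named genes picked by their E2 calls or kept for their E2 response, 33 had a change over time that differed between the arms. The test was limma's test of the difference (adjusted p below 0.05, change with E2 minus change in vehicle, log2). Other named genes were not screened here, and some also passed, such as CX3CR1 (-2.28) and RAB31 (1.00). Higher values with E2 were found for ATRNL1 (2.61), PDZK1 (2.53), DLX2 (2.22), DHRS2 (1.68), GATA3 (1.56), TENT5A (1.52), CREB5 (1.46), ARAP2 (1.44), ARSJ (1.36), ID3 (1.29) and PHLDA2 (1.25). Smaller differences of that sign were those of ACOX2 (1.18), LRP8 (1.13), CYP1B1 (1.10), SLC7A11 (0.91), GREB1 (0.71), TMEM158 (0.70), TNFRSF12A (0.60) and ESR1 (0.12). Lower values with E2 were found for ATP8A2 (-2.86), HDC (-2.34), SLC14A1 (-2.25), ALB (-2.25), STC2 (-1.67), STON1 (-1.36), CNR1 (-1.31), PCK1 (-1.24), NDP (-1.20), PRR16 (-1.20), AKR1D1 (-1.05), BAMBI (-1.04), DEPP1 (-0.82) and BIK (-0.33). Many of these genes were chosen for a contrast between the arms or for their response to E2, so their number says nothing about genes at large. For ARAP2, CYP1B1, SLC7A11 and PHLDA2 both arms fell, and vehicle cells fell further.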

How the results depend on the processing

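The number of genes called in vehicle kept within 1.5 times of 3458 under every alternative run, from 2914 with a replicate block and only the 8 vehicle arrays to 3725 with array weights, and was 2494 at an adjusted p of 0.01. Leaving out single arrays gave 3110 to 3268 called, 89 to 104 genes at least 1.5-fold higher and 98 to 113 at least 1.5-fold lower. The higher share of calls was 55.8%, and it was 52.1% after centring arrays on their medians and 51.4% with cyclic loess. Replicate letters were checked for pairing: the deviations of vehicle arrays with the same letter correlated at 0.0376, 0.0728, -0.0212 and 0.129, and those of the E2 arrays at 0.251, 0.0211, 0.0065 and 0.37. Arrays with different letters correlated at -0.126 to 0.125 in vehicle and at -0.357 to 0.113 with E2, where same-letter A and D lay above that range. Since not every same-letter pair passed 0.1, the letters were taken to share only a name. An effect shared by arrays of 1 letter was not tested. The replicate block with all 20 arrays gave 3424 calls, and TFF1 was not called with it (adjusted p = 0.055) or with the block and only the 8 vehicle arrays (0.17). With the replicate block and only the 8 vehicle arrays, 6 heat shock and 6 glycolysis genes were lower, 3 adhesion and 2 basal genes were lower and 1 stromal gene was higher. With only the 8 vehicle arrays and no block, 7 glycolysis and 2 basal genes were lower and 2 immune or endothelial genes were higher. Basal genes lower also numbered 2 with a replicate block on all 20 arrays and 2 with array weights. Without the dimmest 25% of genes, 2 of the NF-kB genes were lower, against 4 in the fit reported, and 0 basal markers were lower and 0 immune or endothelial markers higher. Cyclic loess gave 10 fatty acid genes lower, and the most variable probe set gave 4 BCL2 family genes higher and 3 adhesion genes lower, against 5. Single arrays left out moved the adhesion count from 3 to 6, the basal from 1 to 3, the stromal from 0 to 1 and the retinoid from 1 to 2 higher. The cause was not tested. Of 107 genes named with a vehicle difference, 103 kept their call and direction under all 18 alternatives that refit them, and 0 turned direction with a call. The exceptions were TFF1, CDC20, CNR1 and PER2: with the mean of all probe sets CNR1 (0.13) and PER2 (0.12) were not called. Signals near background compress changes, which limits the dim genes, and 4 arrays a group limit the precision.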
